A study of Mus musculus with 26 samples.

Results

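The beta-defensins are a family of small secreted peptides, and their mRNAs were examined in the proximal epididymis and the testis of ArKI knock-in mice. All gene symbols that begin with Defb and a number were taken from the count tables, which gave 44 genes of 23337, 2 of them named as pseudogenes. RNA-seq covered the 2 proximal parts of the epididymis, the initial segment (IS) and the caput, with 5 ArKI and 5 wild-type (WT) mice each, and the testis, with 3 mice per genotype. All were 3-month-old males, and the labels give the strain as C57Bl/6N; 129 hybrid. ArKI mice carry their knock-in allele in every cell, so an effect in the epididymis cannot be told apart from one that reaches it from another organ. Each library was made from a tissue piece that holds several cell types, and in such bulk samples fewer cells of a type and less RNA per cell cannot be told apart. Testis and epididymis came from different sequencing batches, and the tissue cannot be told apart from the batch.

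Beta-defensins share a fold held by disulphide bonds and are best known for killing microbes at epithelial surfaces. Most mouse members are made by epididymal principal cells, each in its own stretch of the duct, and the secreted peptides coat passing sperm, where they take part in maturation and motility. The epididymal epithelium depends on androgen, and the IS also depends on factors that arrive in testicular fluid.

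The libraries held between 4125768 and 21376604 counts, and 3 counts, taken as the smallest visible signal, corresponded to at most 0.727 CPM, the count scaled to a library of fixed size. The segment labels fitted the IS markers better than the caput markers. Lcn8, a lipocalin of the IS, ran from 9213 to 14248 CPM in the IS and from 28.3 to 1148 CPM in the caput, while Lcn5, a lipocalin of the caput, ran from 39.9 to 113 and from 10115 to 17403 CPM. Of 7 IS markers 5 were called lower in the WT caput than in the WT IS and Rnase9 was called higher. Of 6 caput markers Lcn5 was the 1 called higher in the caput, Cst11 was called lower, and Crisp1 had a log2 difference of -2.45 (adjusted p 0.014), so this list as a whole does not mark the caput here. The summed counts of 8 germ cell and sperm genes were lower in ArKI mice, with 235 to 370 CPM in the WT and 39.1 to 109 CPM in the ArKI caput. In the IS they reached up to 69.2 CPM in the WT and 5.63 CPM in the ArKI samples.

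In GRCm38 (mm10), 43 of the 44 genes could be placed, and they fell into 4 chromosomal groups. Chromosome 8 held 24 members, chromosome 2 held 11 within 164 kb, chromosome 14 held 5 within 81 kb and chromosome 1 held 3 within 55 kb. Close copies share sequence that uniquely mapped reads cannot resolve. Of the 50-base windows of the exons, 20.7% were shared with another gene in Defb2, 19.8% in Defb11, 16.9% in Defb10 and 9.96% in Defb9, which share with each other. Defb15 shared 37.2% with an overlapping gene on the other strand (Gm36879), and since the strand setting of the counting is not stated, reads of these 2 genes may not have been told apart.

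RefSeq promoter windows (250 bases before the start, GRCm38.p6) were found for 29 members. They are shown for Defb45 and Defb15, which were lower in the ArKI caput, for Defb6, which was higher in the ArKI IS, and for Defb48 and Defb30, members of the chromosome 14 cluster with opposite segment patterns. No window was found for Defb19 or Defb1. Capitals mark the hexamer TGTTCT on either strand (read as AGAACA on the other), which is a half-site known from glucocorticoid response elements.
Defb45: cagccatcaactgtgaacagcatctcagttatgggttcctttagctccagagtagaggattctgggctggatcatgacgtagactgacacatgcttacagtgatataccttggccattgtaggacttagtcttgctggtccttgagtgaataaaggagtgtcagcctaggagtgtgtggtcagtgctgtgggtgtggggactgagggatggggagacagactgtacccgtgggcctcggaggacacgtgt
Defb15: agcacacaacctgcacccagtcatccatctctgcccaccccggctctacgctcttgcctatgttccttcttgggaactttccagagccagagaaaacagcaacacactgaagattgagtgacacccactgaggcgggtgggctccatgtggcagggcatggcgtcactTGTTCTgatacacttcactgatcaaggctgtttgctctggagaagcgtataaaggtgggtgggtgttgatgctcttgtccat
Defb6: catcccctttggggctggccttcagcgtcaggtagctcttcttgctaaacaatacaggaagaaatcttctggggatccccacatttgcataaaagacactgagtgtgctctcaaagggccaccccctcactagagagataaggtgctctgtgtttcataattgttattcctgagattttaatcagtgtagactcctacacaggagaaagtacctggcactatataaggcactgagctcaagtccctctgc
Defb48: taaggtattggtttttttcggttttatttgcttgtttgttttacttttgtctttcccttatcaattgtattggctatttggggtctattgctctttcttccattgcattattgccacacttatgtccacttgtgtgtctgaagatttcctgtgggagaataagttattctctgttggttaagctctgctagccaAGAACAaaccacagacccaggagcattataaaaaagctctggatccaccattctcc
Defb30: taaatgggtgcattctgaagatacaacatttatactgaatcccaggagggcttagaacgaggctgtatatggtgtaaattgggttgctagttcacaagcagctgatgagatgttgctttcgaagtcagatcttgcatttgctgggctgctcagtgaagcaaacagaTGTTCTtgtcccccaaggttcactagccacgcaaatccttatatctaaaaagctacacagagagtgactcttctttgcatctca

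The windows are Defb45 chr2:152596486-152596735 (minus strand), Defb15 chr8:21932711-21932960 (minus), Defb6 chr8:19225228-19225477 (plus), Defb48 chr14:62984511-62984760 (minus) and Defb30 chr14:63037847-63038096 (minus). The Defb45 and Defb30 windows lie inside the genes as GENCODE draws them, because GENCODE places the starts of these 2 genes further upstream. The hexamer began at position -82 from the start in Defb15, at -84 in Defb30 and at -56 in Defb48, and was not in the windows of Defb45 and Defb6. Over all members it was in 14 of 30 windows (Defb21 has 2), against 16.1% of the 32851 windows of all genes. Some of these windows hold the hexamer in nearly the same flanking sequence, namely those of Defb3, Defb46 and Defb8, and those of Defb10 and Defb11. Windows of close copies are not independent, so the count cannot be set against the rate of all genes as an excess. The full palindrome built from this half-site, GNACA and TGTNC with any 3 bases between them, reads the same on both strands and can overlap the hexamer. It was in 0 of 30 windows and in 0.387% of all windows. The median GC content was 47.6% in the members' windows and 52.4% in all windows. A match describes these letters and does not show that any protein binds there.

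In the WT IS the family supplied 1.68% to 1.85% of all counts, in the WT caput 1.26% to 1.57%, and in the testis of both genotypes 0.0130% to 0.0178%. The shares in ArKI mice were 1.88% to 2.29% in the IS, above every WT sample, and 1.18% to 1.54% in the caput, overlapping WT. Without Defb20, the member with the most counts in both groups of the IS, the mean share was 1.20% ± 0.0285 in the WT and 1.25% ± 0.0642 in the ArKI IS (SD, n = 5 each). The summed smooth muscle markers were at 467 to 523 CPM in the WT and 197 to 359 CPM in the ArKI IS. There Myh11 (-1.03) was called lower, and Acta2 (-0.93), Tagln (-0.98) and the basal cell keratin Krt5 (-0.66) were lower by FDR alone. Among other markers Lcn8 (-0.47), Cst8 (-0.57), Rnase10 (-0.32), Dusp6 (-0.49) and Etv5 (-0.20) of the IS list were lower by FDR alone. In the caput list Adam7 (0.48), Cst11 (0.37) and Rnase12 (0.38) were higher by FDR alone and Crisp1 (-2.58) was called lower. The leukocyte gene H2-Aa (1.00) was called higher. The part of these cell types in the share was not tested. A count of at least 1 in some sample was found for 40 members, while Defb5, Defb7, Defb46 and Defb48-ps had 0 counts in all 26 samples.

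Few members made up most of the signal. Per kilobase of exon (RPKM), the highest means in the WT IS were those of Defb48 (13032 ± 1680, SD, n = 5), Defb20 (8628 ± 1219), Defb25 (8248 ± 297), Defb47 (2979 ± 1159) and Defb42 (2638 ± 124). Defb48 and Defb20 gave 31.9% and 33.2% of the family's counts there. In the WT caput the order was Defb20 (4435 ± 1492 RPKM), Defb42 (3284 ± 90.7), Defb15 (3102 ± 327), Defb18 (2325 ± 776) and Defb39 (2268 ± 327). Defb30 gave 18.1% of the family's counts there, after Defb20 with 21.3%, but had rank 7 per kilobase. Its place depends on the annotation, since the exon lengths are those of GENCODE, which starts Defb30 further upstream than RefSeq. In the IS order Defb20 and Defb25 overlapped within 1 SD, as did Defb47 and Defb42, and in the caput every member overlapped its neighbour. In the WT testis the highest means were those of Defb19 (199 ± 29.7 RPKM, n = 3), Defb33 (56.6 ± 8.76), Defb36 (38.9 ± 1.62), Defb14 (11.9 ± 3.20) and Defb45 (11.6 ± 2.77), the last pair overlapping. Defb14 is the mouse counterpart of a human skin beta-defensin. Levels in the testis and the epididymis were scaled in separate tables, and no test was made between them.

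The testis had a set of its own leading members. Defb33 was at 21.8, 28.3 and 21.9 CPM in the WT testis, against 0 to 0.343 CPM in the IS and 0 to 0.410 CPM in the caput of WT mice. Defb19, known from the Sertoli cells of the testis, was at 70.9, 91.8 and 72.2 CPM in the WT testis and was also present in the caput. Defb48, the leader of the WT IS, reached at most 0.142 CPM in the WT testis.

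**Figure D1:**
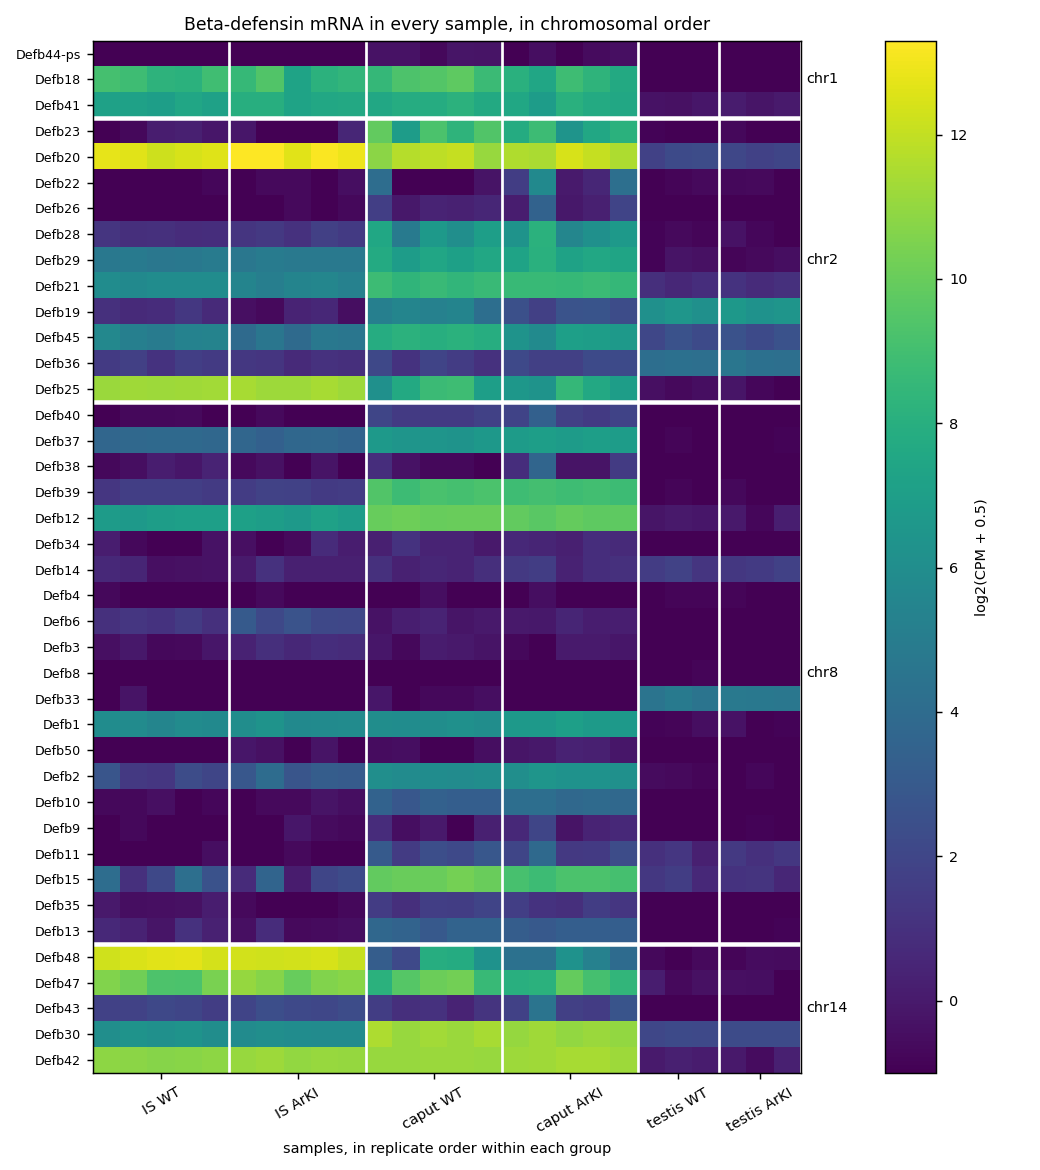
The heat map shows log2(CPM + 0.5) of the 40 members with at least 1 count (rows, in chromosomal order, white lines between chromosomes) in all 26 samples (columns, by group). Defb48 and Defb25 are bright in the IS, Defb30, Defb39, Defb15 and Defb12 in the caput, Defb20 and Defb42 in both segments, and Defb19, Defb33 and Defb36 in the testis.

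Caput and IS of the same genotype were compared to see which members are restricted along the duct. Of the 29 members that passed the filter on low counts in the 20 epididymal samples, 17 were higher and 3 were lower in the WT caput than in the WT IS. The limits were a false discovery rate (FDR) below 0.01 and a fold above 2, at which 21.6% of all 14329 genes were called, 11.4% higher and 10.2% lower. Of the 17, Defb10, Defb11, Defb13, Defb19, Defb23, Defb35 and Defb40 passed the filter through the caput alone, and Defb6, 1 of the 3, through the IS alone, so the filter favoured a difference in these 8 and the count and its split support nothing. Defb14 also passed through the caput alone and was not called. Of all genes that passed through 1 segment alone, 68.8% of the 733 of the caput and 77.2% of the 465 of the IS were called. Of the 20 members that passed in both segments 10 were higher and 2 were lower, against 17.0% of the 12969 genes that did so called. The 15 members that did not pass the filter were not tested, among them Defb22, which reached 55.7 CPM in 1 ArKI caput library. The IS and caput samples of a genotype came from the same 5 mice, but the labels do not tie a library to a mouse, so this fit and that of the interaction treat the segments as independent samples.

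Members of one cluster could differ in direction. On chromosome 14, Defb48 (chr14:62977524-62984510) had 4893, 5797, 6428, 6639 and 5239 CPM in the WT IS and 8.71, 3.92, 244, 219 and 77.1 CPM in the WT caput. The groups did not overlap, and the caput libraries differed widely among themselves. Defb30 (chr14:63034087-63049960), in the same cluster, had 67.0, 79.9, 72.7, 82.0 and 65.0 CPM in the WT IS and 3000, 2161, 2584, 2288 and 2715 CPM in the WT caput. The log2 difference, caput minus IS, was -5.72 for Defb48 (SE 0.88, adjusted p 2.0e-05) and 5.12 for Defb30 (SE 0.09, adjusted p 1.2e-24). Defb42, which lies beside Defb30 on the other strand, differed by only 0.32 (SE 0.06, adjusted p 2.3e-05). In GENCODE it begins inside the Defb30 gene with no shared exon. From the RefSeq start of the Defb30 window above the 2 genes do not overlap. Defb42 was near the top in both segments, with 1791 ± 83.9 CPM in the WT IS and 2230 ± 61.6 CPM in the WT caput (n = 5 each).

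On chromosome 2, the IS member Defb25 (chr2:152622356-152623053) had 2311 to 2505 CPM in the WT IS and 71.2 to 462 CPM in the WT caput, a log2 difference of -3.22 (SE 0.48, adjusted p 1.5e-05). In the same cluster Defb23 was nearly confined to the caput, with at most 0.707 CPM in the WT IS and 121 to 937 CPM in the WT caput. Defb28, Defb45, Defb21 and Defb29 of this cluster were also higher in the caput, by 6.13, 2.71, 2.70 and 2.63 on the log2 scale. Defb20, the leading chromosome 2 member in both segments, was lower in the caput by FDR alone (-0.96, SE 0.23, adjusted p 0.0014), and passed the fold limit without IS replicate 3 or caput replicate 3 or 4, at -1.02 to -1.09.

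On chromosome 8, Defb39 (log2 difference 7.89, SE 0.12, adjusted p 1.2e-24) and Defb15 (6.91, SE 0.48, adjusted p 8.2e-10) were higher in the WT caput. Defb10 had 408 counts in the WT caput against 5 in the WT IS. Defb11 had 231 counts in the WT caput against 2 in the WT IS, and its ratio of 108 has a counting interval of 29.6 to 898. Defb6, which is known from skeletal muscle, was the member with more mRNA in the IS, at 1.45, 1.94, 1.61, 2.26 and 1.46 CPM against 0.308, 0.654, 0.818, 0.366 and 0.468 CPM in the caput. Its groups did not overlap, and its level was low in both segments. Defb1, the mouse counterpart of the beta-defensin found in most human epithelia, was at 45.6 to 61.0 CPM in the WT IS and 62.6 to 71.0 CPM in the WT caput, with a log2 difference of 0.22 (SE 0.10, adjusted p 0.053).

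In ArKI mice, which share no sample with the WT contrast, 18 members were higher and 5 were lower in the caput, against 19.8% of all genes called, 10.1% higher and 9.64% lower. The filter was the same, with 8 members through the caput alone, 7 of them called, and 1 through the IS alone, also called. Of the 20 that passed in both 11 were higher and 4 were lower, against 15.4% of genes. The log2 difference was -7.18 for Defb48 (SE 0.95, adjusted p 3.6e-06) and -3.86 for Defb25 (SE 0.50, adjusted p 2.8e-06). Defb47 (-1.75, SE 0.45, adjusted p 0.0026), Defb20 (-1.23, SE 0.23, adjusted p 0.00018) and Defb36 (1.19, SE 0.26, adjusted p 0.00022) passed in ArKI and not in WT mice. The test of the difference between genotypes did not call these 3 members, and Defb47 lost its call with the replicate number as a block (-1.93, adjusted p 0.025).

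**Figure D2:**
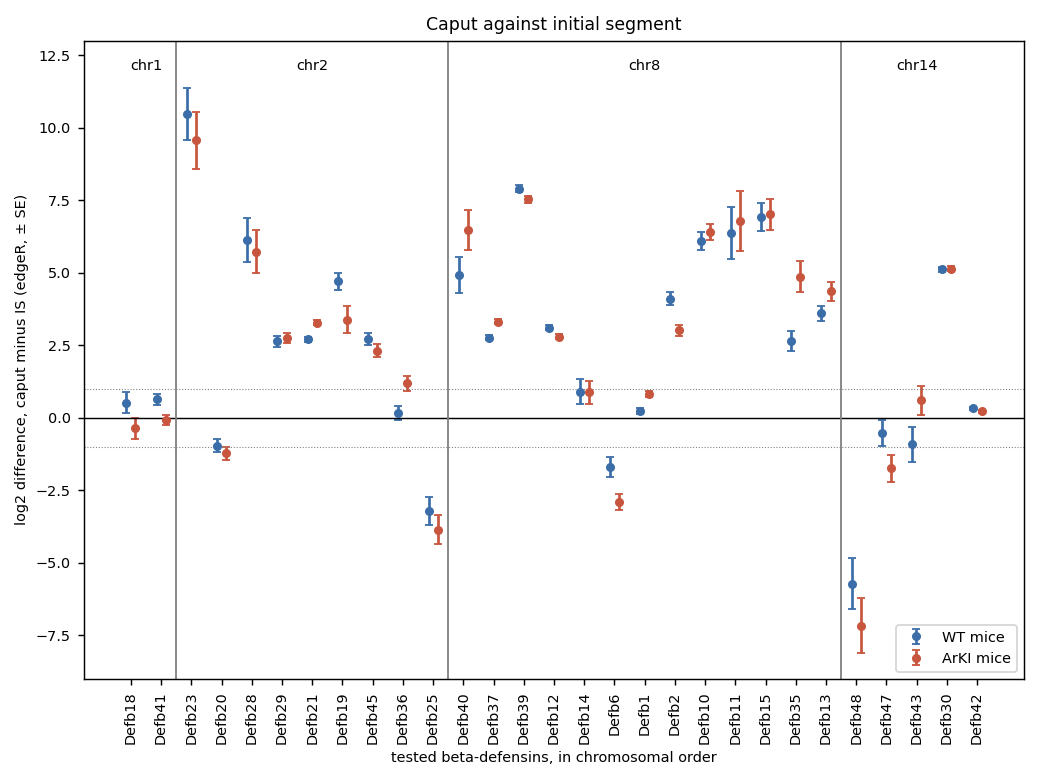
The plot shows the log2 difference, caput minus IS, with its SE for the 29 tested members in chromosomal order, in WT (blue) and ArKI (red) mice, with dotted lines at a fold of 2. Defb48 and Defb25 lie far below 0 and Defb39 and Defb30 far above it in both genotypes.

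The caput samples of one genotype did not have the same members at the same level. In the WT caput, 4 of 23 members with a mean of at least 5 CPM had an SD above 1 on the log2 scale, against 0.372% of 11287 genes of such a level. They were Defb48 (SD 2.66), Defb23 (1.17), Defb25 (1.15) and Defb28 (1.03). In the ArKI caput they were Defb22, Defb43 and Defb11, 3 of 24 members against 0.282% of genes. Defb48 was at 8.71, 3.92, 244, 219 and 77.1 CPM in WT caput replicates 1 to 5, where Lcn8, the lipocalin of the IS, was at 42.7, 126, 1077, 1148 and 200 CPM. Both genes were highest in replicates 3 and 4, as were Defb25 and Defb47.

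Defb22, whose product is a component of the sperm surface coat, also differed between libraries. It was at 16.7, 0, 0, 0 and 0.351 CPM in the WT caput and at 2.53, 55.7, 0.531, 0.938 and 18.2 CPM in the ArKI caput. Crisp1, a secreted protein that binds sperm, was at 916, 18.0, 411, 135 and 430 CPM and at 534, 2943, 107, 311 and 907 CPM in the same libraries. The highest value of both in each genotype was in the same library, WT replicate 1 and ArKI replicate 2. The latter library also had the highest Defb26, Defb28, Defb38, Defb40 and Defb43 of the caput samples, the fewest counts of all libraries and the highest Ltf, the gene of lactoferrin (25.3 CPM, against 0.327 to 3.49 CPM in the other caput libraries). Lcn8 falls from the IS to the caput, but Crisp1 was at 1369 to 2346 CPM in the WT IS and is no simple mark of position. In the ArKI IS it was at 238 to 470 CPM and was called lower than in WT (-2.58, adjusted p 5.8e-05). The part of dissection in these values was not tested.

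**Figure D3:**
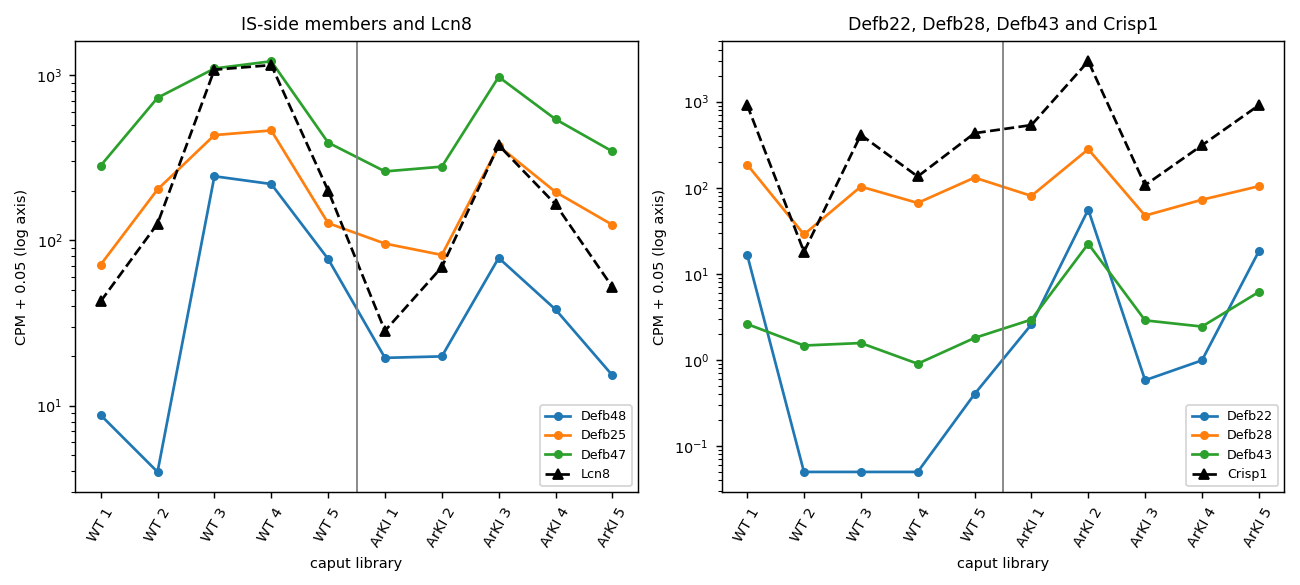
The plot shows CPM + 0.05 on a log axis in the 10 caput libraries, with Defb48, Defb25, Defb47 and the IS marker Lcn8 on the left, and Defb22, Defb28, Defb43 and Crisp1 on the right. The left-hand genes are high in WT replicates 3 and 4 and ArKI replicate 3, and the right-hand genes in ArKI replicate 2.

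ArKI and WT mice were compared within the IS to ask whether the allele alters the family there. Of 44 members 21 passed the filter, 1 of them was higher in ArKI (Defb6) and 0 were lower at the same limits. That is 4.76% of those tested, against 4.04% of all 13434 genes, 2.72% higher and 1.32% lower. With the FDR limit alone there were 5, against 18.8% of all genes, with Defb6 and Defb42 higher and Defb45, Defb21 and Defb30 lower. Both shares of the family were near those of all genes. At an unadjusted p below 0.05 there were 11 of the 21 tested members, against 39.7% of genes. The median log2 difference of the tested members was 0.07 against -0.00 over all genes, and the median size was 0.39 against 0.15.

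Defb6 (chr8:19225478-19228209) was at 1.45, 1.94, 1.61, 2.26 and 1.46 CPM in the WT IS and at 7.78, 3.79, 5.71, 3.75 and 3.66 CPM in the ArKI IS. All ArKI samples lay above all WT samples. The log2 difference was 1.51 (SE 0.25, adjusted p 1.5e-04), and the 2 groups held 72 and 179 counts. In the caput it was below the filter, at no more than 0.886 CPM in any sample.

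Defb45 (chr2:152593191-152599399) was at 49.9, 35.5, 30.8, 40.8 and 41.4 CPM in the WT IS and at 14.6, 23.6, 14.8, 25.8 and 23.7 CPM in the ArKI IS. The groups did not overlap, and the log2 difference of -0.96 (SE 0.18, adjusted p 0.003) was just inside the fold limit. Without ArKI replicate 2, 4 or 5, or without WT replicate 3, it passed that limit, with log2 differences between -1.04 and -1.02. Defb21 had 61.1, 55.1, 61.4, 60.5 and 62.1 CPM in the WT and 42.7, 34.8, 43.1, 47.1 and 37.8 CPM in the ArKI IS, with no overlap and a log2 difference of -0.55 (SE 0.07, adjusted p 7.5e-06). It is the closest neighbour of Defb19 on chromosome 2. Defb30 had a log2 difference of -0.25 (SE 0.07, adjusted p 0.0068) and Defb42 one of 0.28 (SE 0.05, adjusted p 2.6e-04).

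The members with the most counts in the IS were not called. Defb48 had a log2 difference of -0.21 (SE 0.08, adjusted p 0.079) and Defb25 one of 0.07 (SE 0.05, adjusted p 0.37). Defb20 was at 4804 to 6958 CPM in the WT and 6528 to 10092 CPM in the ArKI IS, with overlapping groups and a log2 difference of 0.56 (SE 0.14, adjusted p 0.015). It gave 33.2% of the family's counts in the WT and 41.5% in the ArKI IS. Defb2, known from inflamed airways, was at 6.39, 2.06, 1.86, 4.52 and 3.44 CPM and at 6.86, 16.4, 6.28, 8.87 and 8.26 CPM, overlapping between WT replicate 1 and ArKI replicate 3 (log2 difference 1.36, SE 0.37, adjusted p 0.018). DESeq2 and limma-voom called it, with adjusted p of 0.00025 and 0.0036, and edgeR called it without WT replicate 1 (1.66, adjusted p 0.0039).

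Other IS members did not pass the filter. Defb3 lay at 0.124 to 0.457 CPM in the WT and 0.791 to 1.40 CPM in the ArKI IS, without overlap, and a fit without the filter gave a log2 difference of 1.93 (SE 0.46, adjusted p 0.0019). Defb35 had 16 counts in all WT and 2 in all ArKI samples of the IS, a ratio of 6.76 with a 95% counting interval of 1.59 to 60.6. Defb50 had 0 counts in the WT IS and 7 in the ArKI IS, a ratio of 2.76 with 3 counts over the group in place of the 0. The summed efferent duct markers, genes of the ducts next to the IS, were at 153 to 179 CPM in the WT IS. In the ArKI IS they were at 148 to 380 CPM, and the ciliary factor Foxj1 was highest in ArKI replicate 3 (125 CPM). That library had the lowest family share of the ArKI IS (1.88%). Many members were at their ArKI minimum in it, among them Defb18 (154 CPM), Defb47 (1022 CPM), Defb20 (6528 CPM), Defb25 (2366 CPM) and Defb42 (1992 CPM). Others were not, such as Defb48 (5211 CPM). The part of efferent duct tissue in the values was not tested.

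The same comparison in the caput gave 28 tested members, with 0 higher and 2 lower in ArKI (Defb19 and Defb45). That is 7.14%, against 4.98% of all 13726 genes, 2.43% higher and 2.55% lower. The FDR limit alone gave 8 members, 28.6% of those tested against 18.0% of all genes. Of these Defb1, Defb2, Defb10 and Defb37, all on chromosome 8, were higher. Defb15 and Defb12, also on chromosome 8, were lower, as were Defb19 and Defb45 on chromosome 2. The median log2 difference of the tested members was -0.21 against 0.00 over all genes, and the median size was 0.45 against 0.14.

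Defb19 (chr2:152576086-152580312) had the largest difference among the called members. It was at 35.8, 45.1, 38.8, 42.5 and 17.2 CPM in the WT caput and at 5.18, 2.76, 5.76, 6.06 and 4.45 CPM in the ArKI caput. The groups were apart in every sample, with WT replicate 5 closest to ArKI. The log2 difference was -2.82 (SE 0.29, adjusted p 8.6e-05), or 35.9 ± 11.0 against 4.84 ± 1.31 CPM (SD, n = 5 each). Leaving out each sample in turn kept it between -2.99 and -2.72.

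All 8 germ cell and sperm genes were called lower in the ArKI caput too. Prm2, the sperm nuclear protamine, was at 73.2 to 134 CPM in the WT and 3.25 to 18.3 CPM in the ArKI caput. In the WT testis Prm2 had 70.5 times the mean CPM of Defb19, with 65.9 to 78.0 in single samples. In the WT caput it had 2.47 times, with 1.62 to 4.95, and in the ArKI caput 1.97 times, with 0.628 to 3.69. Whether sperm RNA, the caput epithelium or both carry the Defb19 difference was not tested. In the IS, Defb19 was below the filter, at 1.14 to 1.98 CPM in the WT and 0.140 to 1.02 CPM in ArKI mice, without overlap, and a fit without the filter gave -1.50 (SE 0.44, adjusted p 0.011).

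Defb45 lies just upstream of Defb19 on the same strand and was lower in both segments. In the caput it was at 235, 297, 247, 282 and 241 CPM in WT and at 80.7, 55.9, 132, 123 and 104 CPM in ArKI mice, with a wide gap between the groups. The log2 difference was -1.38 (SE 0.22, adjusted p 0.0016). Defb45 lost this call with the replicate number as a block, which joins WT and ArKI samples of equal number (-1.42, adjusted p 0.016). The interaction of segment and genotype did not separate its caput from its IS difference (-0.41, SE 0.30, adjusted p 0.42). The next members on either side of the Defb19 and Defb45 pair, Defb21 and Defb36, had caput differences of 0.03 (SE 0.07, adjusted p 0.79) and 0.52 (SE 0.25, adjusted p 0.14).

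Defb15, an epididymal member bound to sperm, was among the 5 most abundant caput members in WT mice per kilobase. It was at 947, 1056, 1033, 1254 and 1061 CPM in the WT and at 569, 450, 604, 603 and 547 CPM in the ArKI caput, without overlap. The log2 difference of -0.94 (SE 0.09, adjusted p 1.1e-06) had a low error and missed the fold limit. The caveat on its antisense partner applies here. Defb12, close to Defb39 on chromosome 8, was at 1005 to 1136 CPM in the WT and 804 to 951 CPM in the ArKI caput (log2 difference -0.24, SE 0.05, adjusted p 0.0029).

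Of the 4 members that were higher, Defb1 (chr8:21776599-21795185) was at 64.2, 62.6, 64.9, 71.0 and 63.1 CPM in the WT and at 105, 101, 135, 112 and 103 CPM in the ArKI caput. Every ArKI sample exceeded every WT sample, and the log2 difference was 0.78 (SE 0.07, adjusted p 7.0e-07). Defb10 (chr8:21858901-21862011) was at 10.7, 6.87, 10.4, 9.02 and 9.12 CPM in the WT and at 17.7, 17.3, 13.5, 14.9 and 13.9 CPM in the ArKI caput, also without overlap (0.73, SE 0.12, adjusted p 2.7e-04). Defb37 was at 81.6 to 105 CPM and 113 to 129 CPM (0.40, SE 0.07, adjusted p 2.8e-04), and Defb2 at 58.7 to 66.9 CPM and 67.1 to 86.1 CPM (0.27, SE 0.06, adjusted p 0.004). None of the 4 reached a fold of 2.

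Other abundant caput members did not pass in edgeR. Defb18 was at 367, 633, 698, 863 and 437 CPM in the WT and at 272, 175, 464, 320 and 203 CPM in the ArKI caput, overlapping between the groups (-1.06, SE 0.33, adjusted p 0.046), and was called by DESeq2 (adjusted p 0.0077) and limma-voom (adjusted p 0.006). The members that varied most between caput libraries had wide errors, with -1.64 for Defb48 (SE 1.04, adjusted p 0.30), -1.12 for Defb23 (SE 0.60, adjusted p 0.22) and 1.94 for Defb43 (SE 0.76, adjusted p 0.095). When the mean log2 CPM of the IS-side genes Lcn8, Cst8 and Rnase10 was added to the fit, an alternative chosen after seeing the data, Defb19 was at -2.71 (adjusted p 0.00057), Defb45 at -1.23 (adjusted p 0.0041) and Defb18 at -0.63 (adjusted p 0.077). Defb33, the testis member, had 8 counts in the WT caput and 0 in the ArKI caput. The ratio of WT to ArKI was 2.81 with 3 counts over the group in place of the 0.

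**Figure D4:**
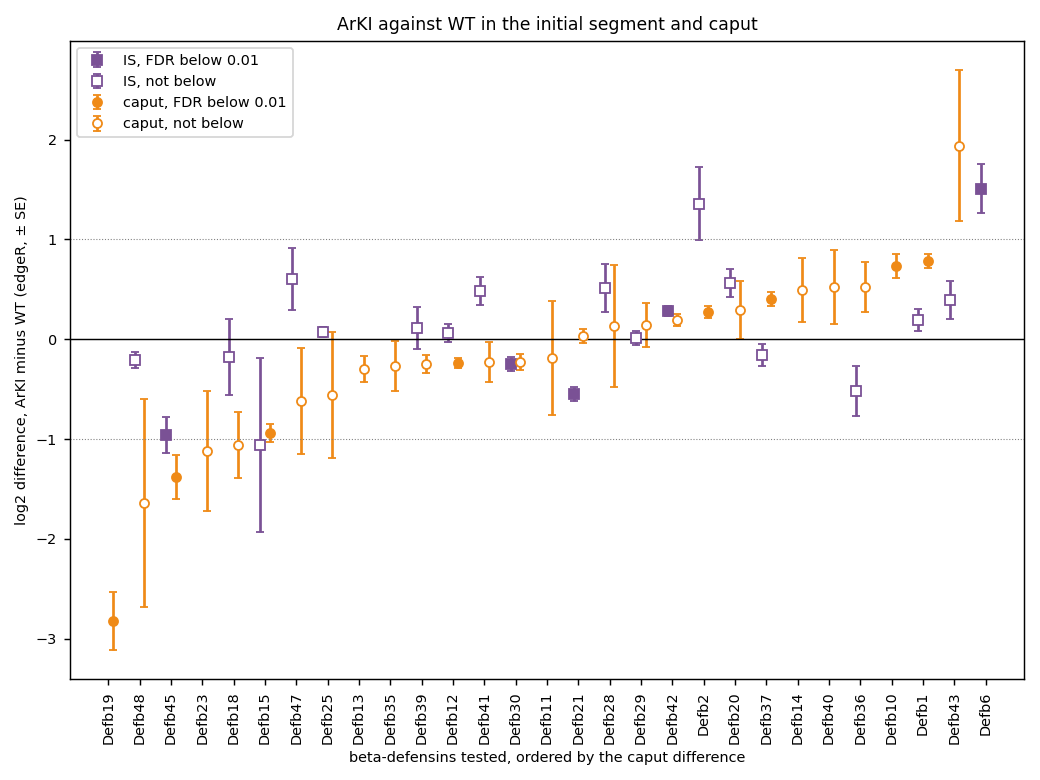
The plot shows the log2 difference, ArKI minus WT, with its SE for members tested in the IS (squares) or the caput (circles), ordered by the caput difference; filled marks have an FDR below 0.01 and dotted lines mark a fold of 2. Defb19 and Defb45 in the caput lie below the lower line and Defb6 in the IS above the upper line.

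The interaction of segment and genotype asked whether the ArKI difference was unlike in the IS and the caput. Of 29 tested members 3 had an adjusted p below 0.01, against 8.18% of all genes (3.95% in this direction), and in each the ArKI minus WT difference was higher in the caput than in the IS. Defb1 had an interaction of 0.58 on the log2 scale (SE 0.14, adjusted p 0.0066), with a genotype difference of 0.19 in the IS (adjusted p 0.22) and 0.78 in the caput. Defb21 had 0.58 (SE 0.11, adjusted p 5.5e-04), with -0.55 in the IS and 0.03 in the caput. Defb37 had 0.55 (SE 0.12, adjusted p 0.0018), with -0.16 in the IS (adjusted p 0.29) and 0.40 in the caput. The Defb1 call was lost in 13 of 20 fits that left out 1 library, at 0.49 to 0.68 with adjusted p up to 0.018. It was also lost with a filter of at least 1 count (0.58, adjusted p 0.016) and with the replicate number as a block (0.59, adjusted p 0.03). The calls of Defb21 and Defb37 were kept in all 20 fits. The interaction was -1.09 for Defb2 (SE 0.33, adjusted p 0.034), -1.21 for Defb6 (SE 0.48, adjusted p 0.093) and -1.32 for Defb19 (SE 0.78, adjusted p 0.29).

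**Figure D5:**
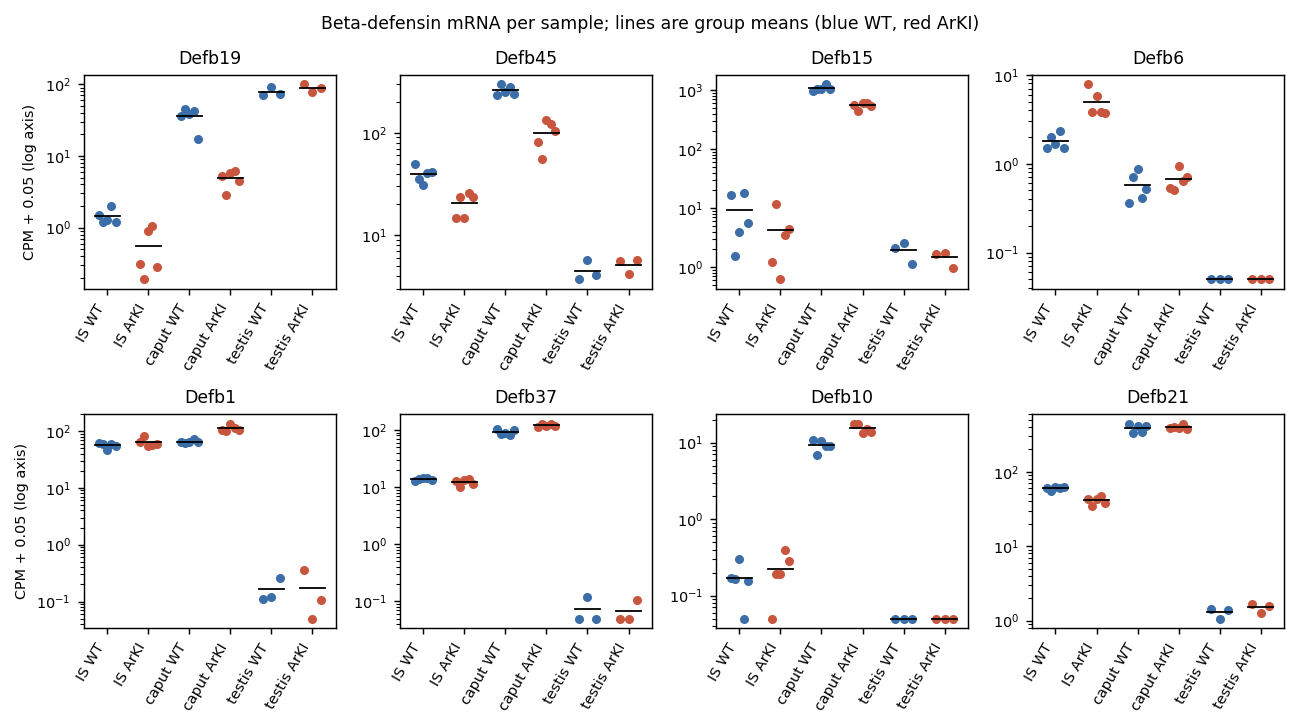
The plot shows CPM + 0.05 on a log axis for every sample of the 6 groups (blue WT, red ArKI, black lines group means) for 8 members. Defb19 and Defb45 separate the genotypes in the caput, Defb6 and Defb21 in the IS, and testis values of the 2 genotypes are close for Defb19.

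In the testis the comparison of ArKI with WT mice tested 10 members and called 0 by edgeR at the FDR limit of 0.2 with a fold above 2, against 0.833% of 15838 genes. At an unadjusted p below 0.05 there were also 0 members, against 13.1% of genes. Defb19 was at 70.9, 91.8 and 72.2 CPM in WT and at 100, 79.0 and 87.9 CPM in ArKI mice, overlapping, with a log2 difference of 0.19 (SE 0.10, adjusted p 0.48). Defb33 (0.13, SE 0.10, adjusted p 0.62), Defb36 (0.16, SE 0.10, adjusted p 0.56), Defb45 (0.19, SE 0.18, adjusted p 0.72) and Defb14 (-0.03, SE 0.23, adjusted p 0.97) were also not called. The tested log2 differences thus lay between -0.40 for Defb15 and 0.38 for Defb11, with a median size of 0.19 against 0.10 over all genes.

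Related genes of epithelial defence were examined from lists. Of the beta-defensin-like genes, Spag11b had 10107 ± 838 CPM in the WT and 11726 ± 3248 CPM in the ArKI IS, and 12091 ± 1897 and 14225 ± 3308 CPM in the caput (SD, n = 5 each), with no call between genotypes. Spag11a was higher in the WT caput than in the WT IS (log2 difference 3.41, SE 0.19, adjusted p 1.9e-11). Of 17 other antimicrobial genes, 5 were tested between genotypes in the IS and 5 in the caput, and 0 were called in either. By FDR alone Bpi (log2 difference -0.57, adjusted p 4.5e-08) and Adm, a vasodilator peptide (4.53 ± 1.15 CPM in the WT against 2.21 ± 0.494 CPM, adjusted p 0.0021), were lower in the ArKI IS. In the testis 7 were tested and 1 was higher in ArKI mice, Lcn2, an iron-siderophore binding lipocalin, with 171 ± 25.4 CPM in WT and 1023 ± 111 CPM in ArKI (SD, n = 3 each, log2 difference 2.58, SE 0.11, adjusted p 2.2e-07). Along the WT duct 3 of 6 tested were lower in the caput, namely Lcn2 (-1.63), Lyz2, a lysozyme (-1.44), and Bpi, which binds bacterial endotoxin (-2.88). Of 8 receptor genes, Tlr1 was higher in the ArKI caput, with 2.33 ± 0.880 against 7.84 ± 1.76 CPM (log2 difference 1.71, SE 0.22, adjusted p 1.3e-05), among 5 tested there, and 0 of 4 were called in the IS, where Tlr4 was higher by FDR alone (0.83, adjusted p 0.00031).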

How the data were processed

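The authors aligned single-end reads of 50 bases to mm10 with STAR, counted uniquely mapped reads per RefSeq gene with Subread 1.5.1, and deposited raw counts, without normalization, for 23337 genes in 26 samples. Whether the counting used strand is not given in the sources used here. ChIP-seq was left out, and a certain item is not reported here.

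ArKI and WT were compared in each tissue by edgeR 4.0.16 (quasi-likelihood, robust) in R 4.3.3, with TMM scaling, filterByExpr (minimum count 10, minimum total 15) and Benjamini-Hochberg adjustment over all genes. Calls needed an FDR below 0.01 in the epididymis or 0.2 in the testis and a fold change above 2, and the interaction only the FDR limit. Segments and the interaction were tested in one fit of the 20 epididymal samples. CPM was scaled separately in testis and epididymis. RPKM used GENCODE vM21 exon lengths. Named members were those called between genotypes or in the interaction, the 5 highest per kilobase in each WT tissue, and Defb35 and Defb45, which the study lists, and others are given to describe the family. The members and lists were chosen with earlier results of these data known. DESeq2 1.42.0 and limma 3.58.1 were alternatives. Labels do not say that equal replicate numbers are the same mouse. Scripts were tested on simulated data. Intervals and floors cover counting error only.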

Additional observations from a re-analysis of the deposited data

Results flagged for a closer look

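In 3 of 63 groups of 5 samples, 1 sample lay far from the others, where chance gives about 1 in 20 groups, or 3.15. Defb21 was at 55.1 CPM in WT replicate 2 of the IS, against 60.5 to 62.1 CPM in the other 4. Defb14 was at 1.54 CPM in ArKI replicate 2 of the IS, against 0.528 to 0.713 CPM. Defb1 was at 71.0 CPM in WT replicate 4 of the caput, against 62.6 to 64.9 CPM.

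The genotype difference of 3 members was unlike in the IS and the caput by the interaction test, with 0.58 for Defb1, 0.58 for Defb21 and 0.55 for Defb37 on the log2 scale. They were 10.3% of the 29 members tested, against 8.18% of all genes, and the Defb1 call was lost in 13 of 20 fits that left out 1 library.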

How the results depend on the processing

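Defb6 in the IS and Defb19 in the caput kept their call in every alternative run, leaving out each sample included. The IS count of 1 became 2 with a filter of at least 1 count (Defb3 added), with DESeq2, limma-voom or the 4 epididymal groups in one fit (Defb2 added), and 5 with the FDR alone, and ranged from 1 to 2 when samples were left out. The caput count of 2 became 4 with DESeq2 (Defb18 and Defb43 added), 3 with limma-voom (Defb18 added) and 8 with the FDR alone, and stayed at 2 when samples were left out. Without the member with the most counts, the family's share was 1.20% and 1.25% in the WT and ArKI IS, 1.10% and 0.934% in the caput, and 0.00638% and 0.00693% in the testis. With IS-side markers in the caput fit, uncalled differences turned to 0.52 for Defb25, 0.19 for Defb47 and 0.26 for Defb48. Leaving out samples also turned uncalled values, over ranges of -0.52 to 0.01 for Defb18 in the IS, -0.02 to 0.09 for Defb21 in the caput, -0.04 to 0.30 for Defb36 in the WT segment comparison, and -0.20 to 0.16 for Defb14 in the testis. The cause was not tested.

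With the replicate number as a block, the caput count was 1, since Defb45 was at -1.42 (adjusted p 0.016, against -1.38 without the block). In this fit of ArKI against WT the block joined samples of equal number from different mice, so it is no pairing by mouse. In the segment and interaction fits it joined IS and caput samples of equal number within a genotype. There Defb1 lost its interaction (0.59, adjusted p 0.03, against 0.58), and Defb47 its ArKI segment call (-1.93, adjusted p 0.025, against -1.75). Deviations of same-numbered IS and caput samples correlated between -0.01 and 0.18 in WT and between -0.11 and 0.19 in ArKI mice, and only 3 and 2 of 5 samples correlated best with their own number, so the numbers were not taken to mark the mouse. This does not show that same-numbered IS and caput samples come from different mice, since both segments came from the same 5 mice of a genotype. With the block, 20 members in WT and 22 in ArKI mice were called between segments and 2 in the interaction.

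Most members at the level of a few counts were left out by the filter, and the part of depth in this was not tested.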
